A study of Drosophila melanogaster with 8 samples.

Results

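The 2 wild-type libraries of the series hold the reference transcriptome of late pupal heads, and they were chosen by their titles, which name the stocks Canton S and w1118. They are 2 of 8 libraries, and the others, which carry loss or gain of function of TBPH, the fly counterpart of TDP-43, were not used here. Each library was made from total RNA of 150 pooled Drosophila melanogaster heads, taken 73 to 90 h after puparium formation, from which ribosomal RNA was removed before SOLiD whole-transcriptome sequencing. The labels give the genotype of both libraries as w1118, call them biological replicates and do not say which stock each came from or the sex of the animals. Their labels name no transgene. All 15141 genes of the count table were ranked by their mean CPM, which is the count of a gene divided by the library total and multiplied by 1000000.

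During the second part of metamorphosis the epidermis secretes the adult cuticle, a chitin matrix with proteins that is later tanned, while the head acquires its compound eyes, brain, antennae and muscles. Larval fat body cells persist into this period as loose cells that hold stored proteins and lipids. Photoreceptors build their light-sensing membrane stacks in the same period, and rhodopsin genes are switched on late. Some of the gene classes counted relate to these processes, and all lists were chosen with earlier results of these data known.

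The libraries held 868003 counts in replicate 1 and 716027 in replicate 2. A count was present for 12447 genes in replicate 1, for 12315 in replicate 2 and for 11727 in both, and 2106 genes were at 0 in both. A count of 0 has an exact 95% upper limit of 4.25 CPM in replicate 1 and 5.15 CPM in replicate 2. The floor of 3 counts equals 3.46 CPM in replicate 1 and 4.19 CPM in replicate 2. At least 3 counts in both libraries were found for 10097 genes. Of 13465 protein-coding genes, 12286 had a count and 9692 had at least 3 in both libraries. List counts of detected genes below are to be set beside that share. Across genes, log2(CPM + 1) had a Pearson correlation of 0.956 between the libraries, given as a description because genes are not independent. The spread was larger than counting error, with a chi-square of 3.17 per degree of freedom and a common biological coefficient of variation of 14.68%, from edgeR's dispersion over the 6585 genes with at least 30 counts over both libraries. Errors below are SD over the 2 libraries (n = 2), so they rest on 2 values each. Intervals and limits from counts cover counting error only.

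Both libraries spread their counts over many genes, with no single gene above 1.36%. The 10 most abundant genes held 7.06% of mean CPM, the 30 most abundant 13.1%, the 100 most abundant 23.8% ± 0.76 (SD, n = 2) and the 1000 most abundant 60.1%. It took 606 genes to reach 50% of the counts in replicate 1 and 564 in replicate 2. Of the 100 most abundant genes, 68 were protein-coding, 24 were small nucleolar RNA (snoRNA) genes, 3 were small nuclear RNA genes and 3 were long noncoding RNA genes. The top 100 of the libraries shared 83 genes.

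**Figure D1:**
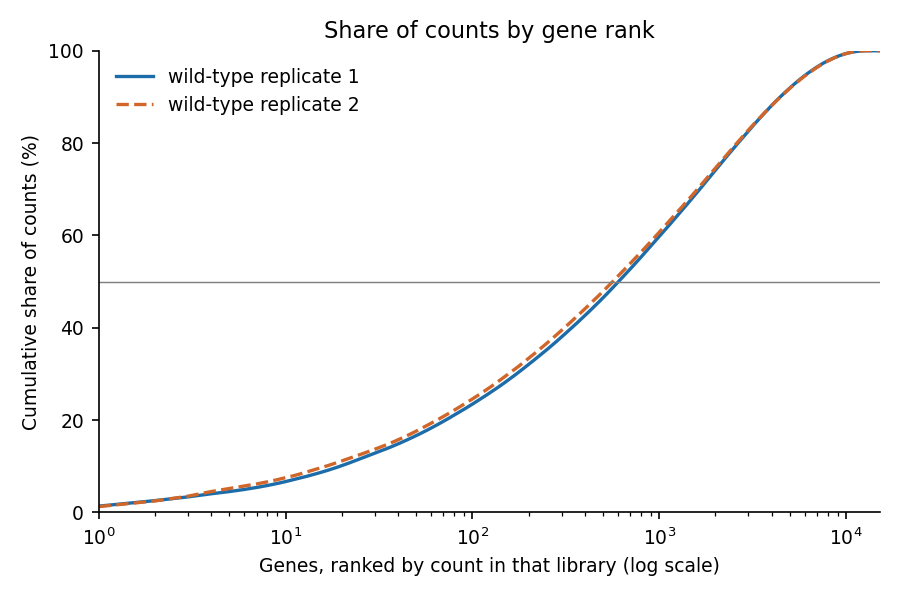
Cumulative share of counts (y axis, %) against gene rank within each library (x axis, log scale), with 1 line per wild-type library and a horizontal line at 50%. The lines run close together, and cross 50% at 606 genes in replicate 1 and 564 in replicate 2.

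Before the abundant classes, the tissue label was set against genes that mark body segments and cell types, and transcripts of trunk Hox, testis and flight muscle genes were counted beside those of head cells. The Hox genes give each segment its identity. Those of the head and first thoracic segment were low. Scr, which acts in the labium and first thoracic segment, had 32 and 25 counts in replicates 1 and 2, pb, a gene of the mouthparts, had 4 and 6, lab had 6 and 2, and Dfd, of the jaw segments, had 0 and 2. Except for Abd-B, which was near Scr, the Hox genes of the thorax and abdomen had more counts. The abdominal gene abd-A had 104 and 72 counts, Antp of the thorax 63 and 50, Ubx of the posterior thorax 41 and 33, and Abd-B of the posterior abdomen 28 and 28. Per kilobase of exon, which corrects for gene length, abd-A reached 20.1 CPM per kb, Ubx 10.9, Antp 8.96 and Abd-B 3.03, against 7.84 for Scr, 1.74 for pb, 1.59 for lab and 0.51 for Dfd. Summed, the trunk genes had 264 ± 11.5 CPM and the head genes 48.6 ± 0.35 CPM (SD, n = 2), and the sums of both libraries were higher for the trunk genes.

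Transcripts of testis and flight muscle were present too. All 19 genes of a testis list had a count and 16 had at least 3 in both libraries. Most protein-coding genes did too, with 12286 of 13465 and 9692 of 13465, so these list counts alone do not set testis apart. betaTub85D, the testis beta-tubulin, had 178 and 160 counts. ocn, a testis protein gene, had 78 and 75, Mst87F, a structural protein of sperm, 64 and 67, and dj, a protein of sperm tails, 34 and 27. Per kb these were 116 CPM for betaTub85D, 157 for ocn, 134 for Mst87F and 31.8 for dj, where the median of protein-coding genes was 8.9. Of the indirect flight muscles, the actin Act88F had 700 and 761 counts, flightin (fln) 198 and 208, and the troponin C gene TpnC4 97 and 144. The wing and leg list had all 9 members at 3 or more counts in both libraries, as did 9692 of 13465 protein-coding genes. It was led by sd, which is also used in other tissues, with 132 and 133 counts. The eggshell and germline markers of the ovary (osk, Cp36, Vm26Aa and nos) held 2 and 3 counts together, and the salivary gland and gut markers (Sgs3, Sgs7, Jon65Ai and Amy-p) 3 and 4. The longer lists held more. The 22 ovary and eggshell genes had 167 and 165 counts, led by gus with 87 and 65 and orb with 56 and 64. The 56 digestive and glue genes had 243 and 197 counts, led by CG30359 (Mal-A5) with 158 and 111. The values are therefore those of libraries labelled late pupal heads, and the part that tissue other than head has in the classes below was not tested.

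Markers of other cell types were counted as well. All 5 neuron markers had at least 3 counts in both libraries, with a sum of 1109 and 1141 CPM, and so did all 5 glia markers, with 394 and 353 CPM. The 6 muscle markers, among them Act88F of the flight muscles, summed to 12707 and 18943 CPM. Of 5 fat body markers 4 were present, with 26099 and 23121 CPM, and Lsp2 was at 0 in both libraries. Of 5 hemocyte markers 4 were present, with 547 and 656 CPM, and He was at 0 in both. Most of this sum came from Cg25C, a collagen gene of hemocytes and fat body, and Pxn, with means of 412 and 161 CPM. Hml had 12 and 23 counts and CG8942 (NimC1) 3 and 6, so the sum does not measure hemocytes alone. The 3 single epidermal genes kkv, Ddc and ple summed to 855 and 902 CPM. Of 8 photoreceptor markers 6 had at least 3 counts in both libraries, and the sum was 1135 and 831 CPM. In pooled tissue, fewer cells of a type and less RNA per cell cannot be told apart.

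**Figure D2:**
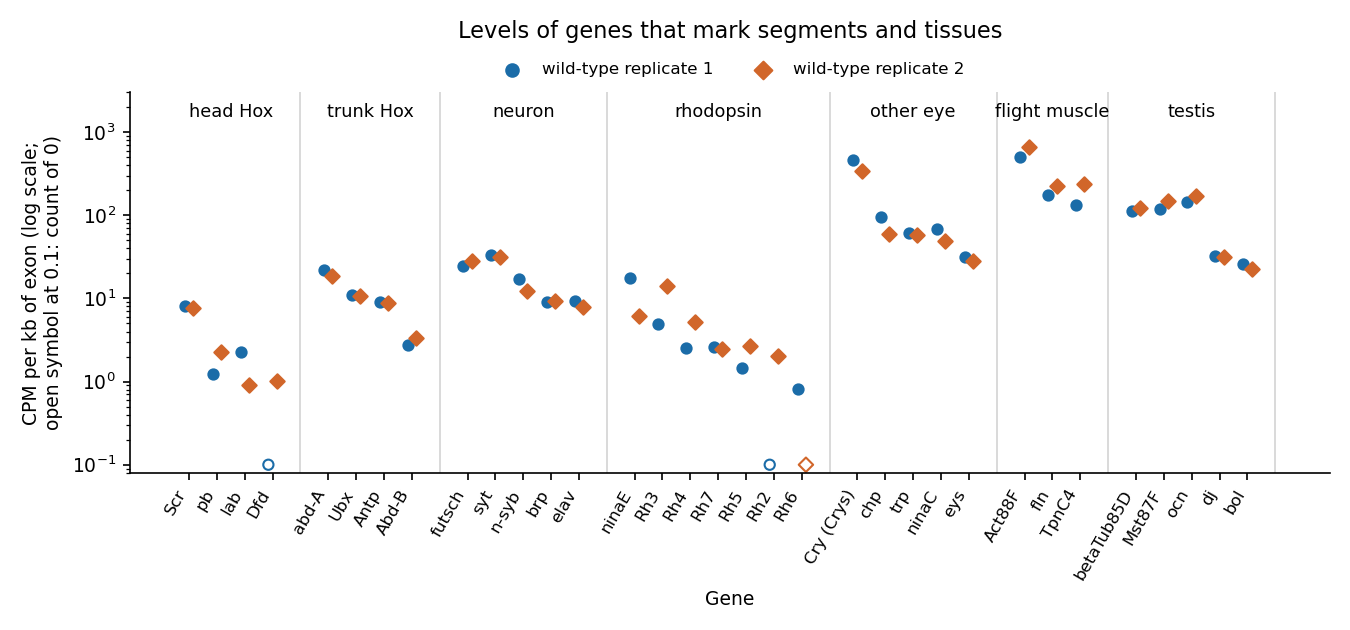
Levels in CPM per kb of exon (y axis, log scale) of genes that mark segments and tissues, with 1 point per wild-type library and an open symbol where the count was 0. The trunk Hox gene abd-A, at 20.1, lies above the head Hox genes, the rhodopsins lie at or below 11.8 on average, and the testis genes ocn and Mst87F lie above 100.

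Of the listed classes, small RNA genes, ribosomal proteins, muscle, fat body and cuticle held the largest shares of counts, as plotted by class. All listed genes together, 2698 of 15141, held 40.4% of counts in replicate 1 and 42.4% in replicate 2. The remaining counts fell in genes of no list, so the classes do not describe the whole transcriptome. The 839 small RNA genes held 11.3% ± 0.93 of counts (SD, n = 2). The 93 genes of cytosolic ribosomal proteins held 4.07% ± 0.30, the 34 muscle genes 4.06% ± 0.75, the 33 fat body and serum genes 3.51%, the cuticle protein genes 2.83% ± 0.44 and the 54 translation factors 2.20%. The 148 neuronal genes held 1.47% ± 0.023 and the 72 eye genes 0.562% ± 0.058. These are shares of counts, in which long genes weigh more than short ones.

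**Figure D3:**
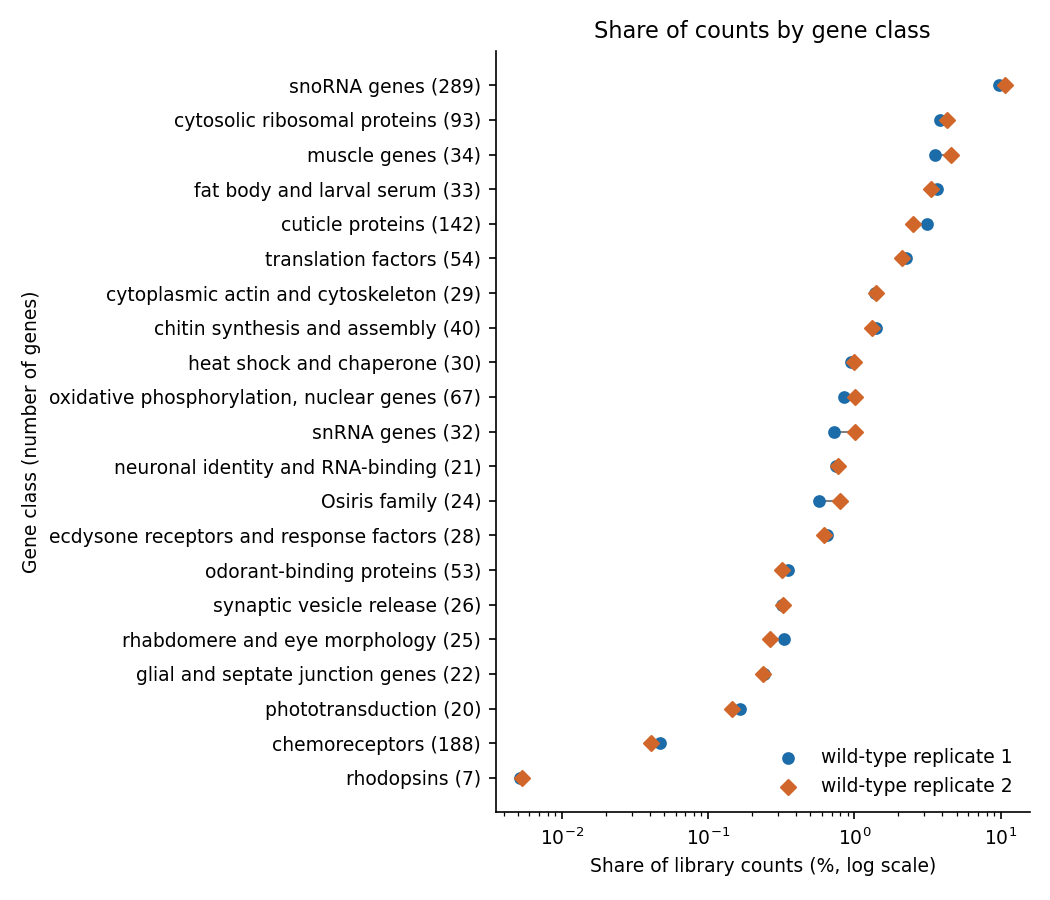
Share of library counts (x axis, %, log scale) held by 21 gene classes (y axis, number of genes in parentheses), with a circle for replicate 1 and a diamond for replicate 2 joined by a line. The snoRNA genes hold 10.2% on average, 4 further classes hold between 2.83% and 4.07%, and the rhodopsins hold 0.00525%.

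The 2 most abundant genes of all are fat body genes. RfaBp, now apolpp, encodes the apolipophorin precursor that carries lipid in the blood, and it had 13611 and 12635 CPM (13123 ± 690, SD, n = 2). Fbp1 encodes a fat body receptor for the larval serum proteins, and it had 11984 and 10097 CPM. Per kb the order was the other way round, with 1115 CPM for RfaBp and 3186 for Fbp1, a gap larger than the spread between libraries. The serum storage proteins followed, with 1992 and 1818 CPM for Lsp1beta, 1657 and 1452 for Lsp1gamma and a mean of 441 for Lsp1alpha. Lsp2 had no count. Fbp2, a fat body dehydrogenase-like protein, had a mean of 1480 CPM, the iron carrier Tsf1 1149 and the clotting protein fon 766. The lipid transfer protein gene CG15828, now Apoltp, had 537 CPM, and the fatty acid synthase CG3523, now FASN1, 259. The adult yolk protein genes were close to the limit of detection, with 5 and 4 counts for Yp1, 1 and 2 for Yp2 and 7 and 4 for Yp3. Of 33 members 32 had a count and 30 had at least 3 in both libraries.

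Muscle genes were abundant in both libraries, and all 34 had at least 3 counts in both. The myosin heavy chain gene Mhc had 6753 and 10250 CPM, so replicate 2 lay above replicate 1. The elastic giant proteins projectin (bt, 4790 ± 889 CPM) and the titin-like sallimus (sls, 3702 ± 386 CPM) and the nuclear anchor Msp-300 (4480 ± 128 CPM) were among the 13 most abundant genes of the table. Mlc2, the myosin regulatory light chain, had 3713 ± 915 CPM. Per kb the long genes fell back, to 171 CPM for bt and 62.7 for sls, against 1624 for Mlc2 and 939 for Mhc, so that bt ranked 289 and sls 889 among protein-coding genes. The calcium pump Ca-P60A, now SERCA, had 1126 CPM, arginine kinase (Argk) 1824, troponin T (up) 1597 and paramyosin (Prm) 699. The actins Act57B and Act87E had 589 and 627 CPM, and the thoracic actins Act88F and Act79B 935 and 651. Mef2, the transcription factor of muscle differentiation, had 160 and 119 counts.

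The machinery of translation formed the next block. The elongation factor gene Ef1alpha48D had 4759 and 4521 CPM, pAbp, which binds poly(A) tails, 4185 and 3237, and the elongation factor Ef2b, now eEF2, 2972 and 3103. Ribosomal protein genes were spread more evenly, and 88 of 93 had at least 3 counts in both libraries. RpL15 led with 1588 and 2039 CPM, and was followed by RpL5 with 1577 and 1799, RpLP1 with 1456 and 1288 and RpS29 with 1268 and 1059. The median member had 369 CPM, beside 13.3 CPM over all genes of the table. Per kb the median was 428 CPM, beside 8.55 over all genes with an exon length. The lowest members are paralogs such as RpS28a with 2 and 1 counts, RpS10a with 1 and 1 and RpL37b with 2 and 0, for which reads may have been shared with the main copy. Mitochondrial ribosomal proteins, a class of 75 genes, had a median of 16.3 CPM and held 0.142% of counts.

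Small RNA genes were the largest of the listed classes, and most of their counts came from snoRNAs, which guide chemical changes of ribosomal RNA. The 289 genes of the snoRNA list held 10.2% of counts, with 9.67% in replicate 1 and 10.8% in replicate 2. The list also holds snmRNA genes, among them those of RNase MRP and 7SK described below, and the 221 genes annotated as snoRNA held 9.69%. The box H/ACA genes, which guide pseudouridine formation, held 7.17% over 113 genes. The box C/D genes with methylation names held 2.03% over 101 genes. snoRNA:Psi18S-176 had rank 3 in the whole table with 8040 and 12252 CPM, and replicate 2 lay above replicate 1. snoRNA:Psi28S-1175b had 4249 and 2394 CPM, snoRNA:Psi28S-3571 3632 and 2638, snoRNA:Psi28S-2622 3200 and 3063 and snoRNA:Psi28S-1192b 3495 and 2705. snoRNA:Psi28S-1175a had 2153 and 3271 CPM and was higher in replicate 2, and snoRNA:Psi28S-2562 had 2119 and 2627. The C/D gene with the highest mean was snoRNA:Me28S-A2589b with 1355 and 3426 CPM, a difference in the opposite direction to snoRNA:Psi28S-1175b. In replicate 1 snoRNA:Me28S-A771, with 1549 counts, lay above its 1176 counts, as did snoRNA:Me28S-G2703c and snoRNA:Me18S-A469.

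Other structural RNAs were uneven. The spliceosomal gene snRNA:U4:39B had 4524 and 6540 CPM and its copy snRNA:U4:38AB 873 and 1799, while snRNA:U4:25F had 4 and 3 counts. The genes of U1, U2 and U6, which are present in several near-identical copies, were at 9 counts or fewer each. snmRNA:342, the RNA of RNase MRP, had 2962 and 3598 CPM, RNaseP:RNA 1552 and 1180, and snmRNA:331, the 7SK RNA that holds back transcription elongation, 1680 and 1610. Of the genes of microRNA precursors, mir-276a had 167 and 140 counts.

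Several multi-copy genes, and the genes of the mitochondrial genome, had no count at all. All 112 replication-dependent histone genes were at 0 in both libraries, whereas the single-copy variants were present, with 518 ± 0.21 CPM for His3.3B, 284 for His4r and 34.2 for His2Av. Of 319 tRNA genes 217 were at 0. Apart from these multi-copy families, all 37 genes of the mitochondrial genome were at 0, and so the nuclear genes alone describe respiration. Whether the mitochondrial genome was included in alignment and counting is not stated. Nor is it stated whether reads with more than 1 matching place were counted. A 0 in the multi-copy families or the mitochondrial genome is a listed value and not a measure of absence.

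The cuticle was a rich class with few leading members. Of the cuticle protein genes, 111 had a count, 31 were at 0 in both libraries, 67 had at least 3 in both libraries and 8 were in the top 100. The median member had 4.17 CPM, under the 13.3 CPM of all genes. The leading gene was GCR(ich), now TwdlT, of the Tweedle family, with 3270 and 2193 CPM. The 4 genes of the Vajk family had 2995 and 1867 CPM for CG16886 (Vajk1), 2804 and 1781 for CG30101 (Vajk4), 1707 and 1163 for CG16884 (Vajk3) and 1366 and 944 for CG16885 (Vajk2). All 4 Vajk genes had the higher value in replicate 1, and together they held 0.731% of counts. Per kb, TwdlT had 1700 CPM and Vajk4 1484.

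Most of the other cuticle proteins carry the Rebers-Riddiford chitin-binding sequence. These 100 genes held 1.55% ± 0.062 of counts, with 1.591% in replicate 1 and 1.503% in replicate 2. Cpr76Bd had 2442 and 2116 CPM, Cpr64Aa 1323 and 1450, Cpr49Ae 891 and 1506 and Cpr92F 1086 and 654. resilin, the rubber-like protein of elastic cuticle, had 698 and 577 CPM. Gasp, a chitin-binding protein of cuticle and tracheae, had 1327 and 818 CPM. Acp65Aa, named as an adult cuticle protein, had 376 and 668 CPM. The 19 larval cuticle genes held 0.00446% of counts, with 15 and 12 counts for Lcp65Ad and 1 and 2 for Lcp1. The pupal cuticle genes Edg78E and Pcp were low as well, with 35 and 18 and with 30 and 18 counts.

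Genes that make and order chitin were present throughout, and all 40 had a count. dp, now dpy, encodes a giant fibrous protein that anchors epidermis to cuticle, and had 3340 and 3279 CPM, the smallest relative spread among the leading cuticle genes named here. Per kb it had 46.1 CPM. The chitinase gene Cht3, now Cht10, had 1979 and 1806 CPM and CG9307, now Cht5, had 872 and 1045. Chitin synthase (kkv) had 741 and 705 CPM. The chitin deacetylase serp had a mean of 626 CPM and LCBP1, now verm, 276. SP71, now tyn, of the zona pellucida proteins that shape the apical surface, had 831 CPM.

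The Osiris family, insect membrane proteins that cluster on 1 chromosome region and are found in cuticle-forming cells, had a count for all 24 members. Osi12 had 1827 and 2068 CPM, Osi3 1045 and 1408, Osi9 700.5 and 932 and Osi7 787 and 785. The median was 137 CPM, and the class held 0.571% of counts in replicate 1 and 0.802% in replicate 2. At the low end Osi16 had 3 and 0 counts and Osi23 2 and 1.

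Genes of tanning were at moderate levels beside the cuticle proteins. CG42345, now stw, the laccase that crosslinks and hardens cuticle, led with 1149 and 943 CPM. Pu, which makes a cofactor of the pathway, had 197 CPM on average and y, needed for black melanin, 171. The tyrosine hydroxylase ple had 65 and 72 counts, and the dopa decarboxylase Ddc 34 and 69. The prophenoloxidase genes Bc (PPO1) and CG8193 (PPO2) had 1 and 2 and 5 and 4 counts.

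The ecdysone cascade, which times metamorphosis, was represented by receptors and early-response factors. ImpE2, an ecdysone-inducible gene of imaginal discs, had 863 and 966 CPM, and 536 per kb. Eip75B had 866 and 778 CPM, Eip93F, the factor that directs adult differentiation, 576 and 588, and Eip74EF 468 and 475. The receptor subunit EcR had 332 CPM, its partner usp 36.0, the receptor Hr46 (Hr3) 380 and ftz-f1 101. br, which specifies pupal fate, had 83.4 CPM, and Kr-h1, which acts in the juvenile hormone response, 6 and 3 counts. All 28 genes of the list had a count, and 26 had at least 3 in both libraries.

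Most listed nervous system genes had a count, as did 12286 of 13465 protein-coding genes, of which 9692 had at least 3 in both libraries. Of 148 neuronal genes 143 had a count and 120 had at least 3 in both libraries, with a median of 36.0 CPM beside 13.3 CPM over all genes. Per kb their median was 7.46 CPM beside 8.55 over all genes. The highest member was fax, an axon guidance gene used also in other cells, with 1395 and 1539 CPM. The RNA-binding genes mub and CG17838, now Syp, had 843 and 809 CPM, and the microtubule-binding futsch 619. TBPH had 43 and 40 counts, 52.7 ± 4.47 CPM.

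Synaptic genes were led by unc-13, which readies vesicles for release, with 868 and 845 CPM. Complexin (cpx) had 271 CPM, dynamin (shi) 246, synaptotagmin (syt) 232, the active zone protein brp 123 and neuronal synaptobrevin (n-syb) 59.7. Among ion channels the calcium-activated potassium channel slo had 248 CPM, the calcium channel cac 182 and the sodium channel para 119. The transporters VAChT and VGlut of acetylcholine and glutamate had 95.7 and 79.3 CPM, and Cha, which makes acetylcholine, had 10 and 13 counts. Of 42 peptide and processing genes 20 had at least 3 counts in both libraries. The processing enzymes svr and Phm had 388 and 88.8 CPM. Among the peptides itp, an ion transport peptide, had 66 and 52 counts and the insulin-like Ilp6 66 and 48, whereas Ilp2 had 2 and 3 counts, Ccap 6 and 5 and Eh, the eclosion hormone, 16 and 4. The septate junction genes Cont and Nrx-IV, used in glia and in epithelia, had 521 and 393 CPM, the septate junction gene Gli 177 CPM and the glial regulator repo 24 and 19 counts.

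The eye showed a split between structural genes and rhodopsins. The lens protein Crystallin, listed as Cry, had 1039 and 764 CPM. Pdh, a retinal dehydrogenase of pigment cells, had 233 and 197 CPM and 227 per kb. chp, which adheres the photoreceptor membranes, had 462 and 288 CPM, eys, which fills the space between them, 265 and 239, and the polarity gene crb 395 and 328. Of phototransduction, the myosin ninaC had 376 and 265 CPM, the light-activated channel trp 256 and 237, the G protein Galpha49B (Galphaq) a mean of 163, and the phospholipase norpA a mean of 95.3. The rhodopsins were close to the limit. ninaE, the main rhodopsin, had 24 and 7 counts, Rh3 6 and 14, Rh4 3 and 5, Rh5 2 and 3, Rh6 1 and 0, Rh2 0 and 2 and Rh7 9 and 7. All 7 together held 0.00518% and 0.00531% of counts. Among other photoreceptor genes, the channel trpl had 1 and 0 counts and the arrestin Arr1 1 and 7, whereas Arr2 had 41 and 25.

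Eye pigment genes were intermediate. Of 20 members all had a count, and the median was 34.8 CPM. The pigment granule gene ltd, now Rab32, had 128 CPM, ca 105 and rb 93.0. The transporter gene w had 24 and 28 counts, 33.4 ± 8.1 CPM. The labels name the allele w1118, a deletion within w, and a count over the whole gene does not check it. Selector genes of eye and head were low, with 63 and 53 counts for dac, 43 and 20 for eya, 25 and 11 for so, 8 and 5 for ey and 6 and 12 for gl. Of the other members, toy had 16 and 33 counts and was higher in replicate 2, oc had 31 and 20, ss 22 and 14, Optix 13 and 8, ems 10 and 10 and al 6 and 13. At the low end hbn had 0 and 5 counts, tll 1 and 2 and ato 3 and 0.

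The gene families named for chemosensation were led by a few odorant-binding proteins, and which cells hold these transcripts was not tested. The odorant-binding protein gene Obp99b had 1735 and 1275 CPM, Obp56a 673 and 654, Obp99c 479 and 556 and Obp44a 388 and 479. Obp99b had 2534 CPM per kb, rank 3 of all protein-coding genes. Of 53 members 11 had at least 3 counts in both libraries and 19 were at 0 in both, and lush, the binding protein of the pheromone-sensing hairs, had 2 and 0. Of 188 chemoreceptor genes 19 had at least 3 counts in both libraries. Or47a led with 64 and 36 counts, and the olfactory co-receptor Or83b, now Orco, had 3 and 0.

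Genes of respiration were led by ATP synthase. ATPsyn-beta, the catalytic subunit of ATP synthase, had 1866 and 2383 CPM, CG1746 (ATPsynC) 1030 and 1141 and the ADP/ATP exchanger sesB 798 and 1045. The glycolytic genes Ald and Eno had 593 and 435 CPM, and citrate synthase (kdn) 631. Among chaperones, the small heat shock genes Hsp23 and Hsp26 had 1464 ± 15.6 and 990 CPM, the constitutive Hsc70-4 1633 and Hsp83 1232. The heat-inducible Hsp70Ba had 5 and 3 counts. Per kb, Hsp23 had rank 9 among protein-coding genes with 1656 CPM. The stress-linked noncoding RNA Hsromega had 2391 and 2029 CPM.

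Of the cytoskeleton genes, all 29 had at least 3 counts in both libraries, their median was 329 CPM and together they held 1.39% of counts. shot, which links actin to microtubules, had 1908 and 2025 CPM, the cytoplasmic actin Act5C 1848 and 1908, and the membrane skeleton gene beta-Spec 1237 and 1226. Of the tubulins, alphaTub84B had 1377 and 1409 CPM and betaTub56D 1071 and 1113, close between the libraries, and betaTub60D had 1003 and 781. The 48 proteasome genes held 0.307% of counts, led by Rpn2 with 212 and 247 CPM, and the 26 genes of the vacuolar proton pump 0.284%, led by Vha16 with 1086 and 1020.

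Genes of sex determination and dosage compensation were counted too. The noncoding RNAs roX1 and roX2, which coat the X chromosome of males, had 1160 and 1074 and 410 and 418 CPM. Sxl had 99.6 CPM, fru 189 and dsx 53.6. msl-2, of the dosage compensation complex, had 24 and 17 counts and tra, a splicing regulator of sex determination, 10 and 10. The labels do not give the sex of the pupae. None of the 6 genes of this list that could be tested between the libraries differed by the rule used to compare them. Over all genes tested the share was 4.6%, and 6 genes are too few to set against it. fru had 226 and 152 CPM, a ratio of 1.48, under the limit of 1.5, with exact 95% intervals apart.

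Several of the most abundant genes have no assigned class. MICAL, an actin-disassembling enzyme, had 4291 and 4133 CPM. CG7214 had 3692 and 4512 CPM and the highest level per kb of all protein-coding genes, 3941 CPM. CG1850 had 3132 and 4162 CPM, and CG13023 3187 and 2487. Ntl, a transporter-like gene, had 2227 and 4183 CPM. In the later Release 6 annotation an exon of Ntl overlaps a tRNA gene on the same strand, MICAL overlaps CG31407 and Msp-300 overlaps small noncoding RNA genes. On the opposite strand RfaBp overlaps Zyx, sls an antisense RNA and CG13023 the gene CG13028. Whether counting used strand is not stated, so the counts of these 6 genes are uncertain. Outside the naming rule and chosen after its value was seen, CG2150 had 1636 CPM per kb, rank 10 among protein-coding genes. Genes named only by a CG or CR number made up 7 of the 100 most abundant.

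The libraries themselves differed by class. A gene was called higher in a library where its CPM was at least 1.5 times that of the other and the exact 95% binomial intervals of its shares did not overlap, among genes with at least 30 counts over both. This compares 2 libraries of 1 group and not conditions, and no p-value is attached. Replicate 1 was higher for 173 of 6585 genes (2.63%) and replicate 2 for 130 (1.97%), which together are 303 genes (4.6%). Of 50 cuticle genes tested, 11 were higher in replicate 1 and 6 in replicate 2, and their median log2 ratio of replicate 1 over replicate 2 was 0.37, beside 0.04 over all genes tested. Of 34 muscle genes, none was higher in replicate 1 and 7 were higher in replicate 2, with a median of -0.40. Of 19 Osiris genes, none was higher in replicate 1 and 6 were higher in replicate 2, with a median of -0.47. Of 181 genes of the snoRNA list, 17 were higher in replicate 1 and 26 in replicate 2, with a median of -0.14. Ribosomal protein genes had 1 call in each direction among 82, with a median of -0.13. None of the 22 synaptic genes tested was called in either direction, and their median was 0.00244.

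Within the cuticle class the directions went by gene. Replicate 1 was higher for Vajk1 and Vajk4, for CG14534 (TwdlE, 666 and 256 CPM), Gasp, CG34461 (1210 and 792), Cpr92F, Cpr66D (646 and 352), Cpr66Cb, Cpr50Ca, Cpr49Ah and Cpr76Ba. Replicate 2 was higher for Cpr49Ae, Cpr30B (351 and 716 CPM), Acp65Aa, Cpr30F, Cpr49Aa and Cpr49Ab (27.6 and 131 CPM). The largest ratios of the class were 4.87 for Cpr76Ba, with 59 and 10 counts, and 4.75 the other way for Cpr49Ab, with 24 and 94 counts. The chitin list had 4 genes higher in replicate 1 out of 32, among them the deacetylases serp, verm (LCBP1) and CG32499 (Cda4).

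In the Osiris family the called members were Osi20 with 138 and 503 CPM, Osi8 with 182 and 358, Osi19 with 95.6 and 309, Osi4 with 134 and 229, Osi15 with 76.0 and 281 and Osi18 with 72.6 and 264. The most abundant members Osi12, Osi3, Osi9 and Osi7 were not called. Osi3, Osi9 and Osi12 were still 1.35, 1.33 and 1.13 times as high in replicate 2, with exact 95% intervals apart, while the intervals of Osi7 overlapped. The muscle calls were Mhc, up, Mlc1, wupA, TpnC41C, TpnC4 and Zeelin1 (Mf), which belong to the contractile filaments. Mhc was 1.52 times as high in replicate 2, and TpnC4 1.80 times. The light chain Mlc2, the giant proteins bt and sls and the actins were not called. Mlc2, bt and sls were still 1.42, 1.30 and 1.16 times as high in replicate 2, with exact 95% intervals apart. For these genes the limit of 1.5 sets the split, so the calls do not separate filament genes from the rest. Among hormone genes Hr4 was higher in replicate 1, with 392 and 192 counts, and among 16 tanning genes tested y was higher in replicate 1, and Ddc and b, the latter with 8 and 23 counts, in replicate 2.

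Among genes with at least 30 counts over both libraries, the largest ratios in favour of replicate 1 were in tRNA:CR31940 with 108 and 17 counts, CG15322 with 118 and 19, tRNA:CR30254 with 31 and 5, CG14397 with 36 and 6, and Cpr76Ba. The largest in favour of replicate 2 were in CG15887 (apn) with 1 and 31 counts, CG5959 (Mco3), a gene of the multicopper oxidases, with 4 and 56, Cpr49Ab, CG4712 with 8 and 29 and CG13640 with 12 and 42. Of 10 tRNA genes tested, 5 were higher in replicate 1 and none in replicate 2. The collection window of 73 to 90 h is the same for both libraries in the labels, and the part that age within it has in these differences was not tested.

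**Figure D4:**
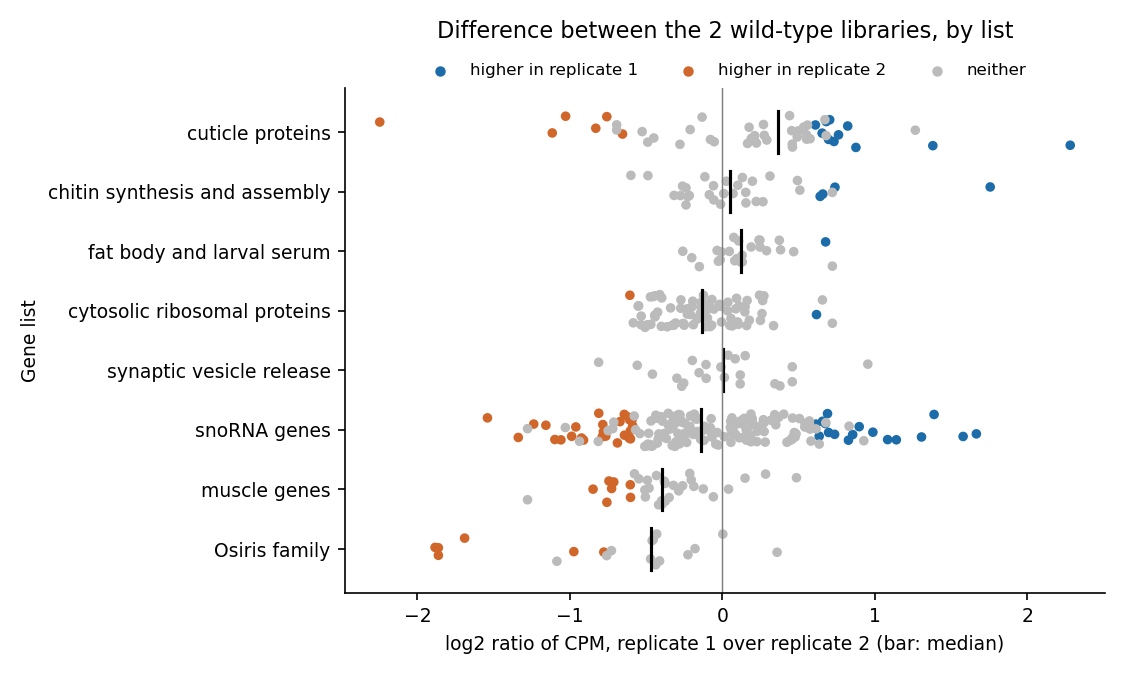
Log2 ratio of CPM in replicate 1 over replicate 2 (x axis) for the genes with at least 30 counts over both libraries in 8 lists (y axis), with coloured points for called genes and a bar at the median. Cuticle genes lie on both sides with a median of 0.37, while the called muscle and Osiris genes all lie on the side of replicate 2.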

How the data were processed

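Total RNA was taken with Trizol from 150 heads per library and ribosomal RNA removed with RiboMinus, per the labels' protocols. The authors deposited 1 table of raw counts per gene and library, with no normalization. Per the submitters' processing notes the counts come from HTSeq and dm3. Versions, the aligner, strand setting and the treatment of reads with several matches could not be taken from the sources, so overlapping and antisense genes cannot be told apart. Whether the replicates came from separate cultures or crosses is not stated, so their spread may be technical in part.

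CPM were computed from library totals (868003 and 716027). Symbols were matched to RefSeq gene records for current names and gene types, and names without a record were looked up in Ensembl annotation of a later build. The Ensembl annotation also gave exon lengths, coding lengths and exon overlaps. Of 15141, 14494 symbols (95.7%) matched, and 14034 genes with a length held 96.8% of counts. No coordinates or sequences are printed. Levels per kb divide CPM by summed exon length.

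No test between conditions was made, since there was 1 group. Genes were called between the libraries by a ratio of 1.5 and exact (Clopper-Pearson) 95% intervals, with at least 30 counts, after testing on simulated data. The simulated data held counting error only, with changes larger than 1.5-fold in genes with more counts. They therefore give no rate of false calls for these libraries. TMM (edgeR 4.0.16) and DESeq2 1.42.0 size factors were alternatives. The tools were R 4.3.3, Python 3.11.15, pandas 2.3.3, numpy 2.4.6 and scipy 1.17.1.

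The 57 gene lists and their members were chosen with earlier results of these data known, and subgroups of them (Vajk, Tweedle, box H/ACA and others), corrections of list members that belonged to other genes and the exon-length alternative were made after values were seen. Named genes were the 30 most abundant, the 4 highest of each list, all Hox, selector, sex-specific and rhodopsin genes, the 5 largest ratios between libraries in each direction, w and TBPH. These are 263 genes, and the text gives part of them. Further list members are named as examples, chosen after their values were seen.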

Additional observations from a re-analysis of the deposited data

How the results depend on the processing

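No paired analysis was possible because only 1 group was used. Leaving out either replicate gave 564 to 606 genes for 50% of counts, 10619 to 10905 genes with at least 3 counts, and shares of 23.5 to 24.6% for the top 100, 10.65 to 11.96% for small RNA, 1.42 to 1.63% for mitochondrial energy, 3.86 to 4.29% for ribosomal proteins, 2.52 to 3.13% for cuticle, 3.53 to 4.59% for muscle, 1.46 to 1.49% for neuronal and 0.521 to 0.603% for eye genes. Without small RNA genes in the denominator the top 100 held 22.4%, mitochondrial energy 1.72%, ribosomal proteins 4.596%, neuronal 1.66% and eye genes 0.633%. Weighting counts by coding length instead gave 382 genes for 50% and shares of 29.3% for the top 100, 14.9% for ribosomal proteins, 5.54% for cuticle, 2.82% for muscle, 1.26% for neuronal and 0.462% for eye genes. Weighting by exon length, small RNAs included, an alternative chosen after seeing the data, gave 45 genes and 64.5%, with 71.4% for small RNA, 3.57% for ribosomal proteins, 1.58% for cuticle, 0.641% for muscle, 0.193% for neuronal and 0.143% for eye genes. Length weighting was not run for mitochondrial energy genes, since 70.1% had a length. Those without a length include the 37 genes of the mitochondrial genome, all at 0 counts. At a ratio of 2, 79 genes were higher in replicate 1 and 64 in replicate 2. TMM gave 148 and 147, DESeq2 size factors 165 and 137, and a minimum of 10 counts 192 and 153. Under TMM and DESeq2 scaling 8 muscle genes were higher in replicate 2, and the 6 Osiris genes stayed 6. Depth limits genes with few counts, such as Rh5, Rh6 and Ilp2.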

Other observations

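Clock, detoxification and immune genes were also described. All 12 clock genes had at least 3 counts in both libraries, among them vri with 256 and 198 CPM and Pdp1 with 126 and 127. The cytochrome P450 genes held 0.179% of counts over 85 genes, and Cyp4g1, which makes cuticular hydrocarbons, led with 494 and 795 CPM, higher in replicate 2. Among 36 glutathione transferases GstS1 led with 442 and 532 CPM. Catalase (Cat) had 1159 and 1014 CPM and the ferritin subunits Fer1HCH and Fer2LCH 690 and 271 on average.

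Immune effector genes were low, with 21 of 48 at 3 or more counts in both libraries, led by TepII with 485 and 454 CPM. Cell death and autophagy genes had a count in all 32 members, with 361 and 359 CPM for Atg8a and 402 and 310 for cathD. Cell cycle genes had a median of 20.6 CPM over 30 genes, and Top2 had 107 and 149 counts, higher in replicate 2. Collagen genes of hemocytes and fat body were present, with 353 and 472 CPM for Cg25C and 271 and 437 for vkg, the latter higher in replicate 2.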
